A study of Homo sapiens with 35 samples.

Results

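The cells described here are TBXT-high cells of a mesoderm culture at 72 h. They were chosen in 1 single-cell library by 4 limits: at least 5000 UMIs (unique molecular identifiers, each counted as 1 captured RNA molecule), at most 10% of UMIs from mitochondrial genes, 4 or more UMIs of TBXT and at most 1 UMI of TBX6. The library held 6266 cell barcodes, of which 5175 met the limits on depth and mitochondrial share, and 1337 of these were TBXT-high (25.8%, exact 95% binomial interval 24.6 to 27.1%). They were set beside the 1705 cells of the same limits with at most 1 TBXT UMI, called the compared cells, which have no limit on TBX6. A group of 1887 cells with 2 or 3 TBXT UMIs and 246 cells with 4 or more TBXT but over 1 TBX6 UMI belong to neither.

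The library came from a culture of H1, a widely used line of human embryonic stem cells, treated with STEMdiff Mesoderm Induction, a commercial medium whose contents the labels do not give. The other 2 single-cell libraries, at 36 h (primitive streak by its label) and 72 h (definitive endoderm), were made from H1 cells given Activin A with the GSK3 inhibitor CHIR99021 and then Activin A alone (AA+CHIR-AA). Cells passed through a sorter before droplet capture, and the gate is not given in the sources used here. The series also has bulk samples of H1 cells under small molecules, which were not used here.

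TBXT encodes Brachyury, the T-box transcription factor that marks the primitive streak and its early mesoderm and later the notochord. Its transcription is driven by Wnt and FGF signals, and cells that leave the streak for paraxial mesoderm lower it while TBX6, another T-box factor, comes on. MIXL1 is a homeobox factor of the streak, and CDX2 is a caudal-type homeobox factor of the posterior body that acts upstream of HOX genes.

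With 1 library there was no replicate, so no test was made and no p-value can be given. Levels are UMIs of a gene per 1000000 UMIs summed over a group of cells (CPM). Intervals are exact 95% intervals and cover counting error only, and cells vary beyond it. The choice of cells used TBXT and TBX6 UMIs of the same cells in which other genes were measured, so all differences below are descriptions. Counts of a few UMIs are a sample of a cell's RNA, so cells on either side of a limit can hold the same amount, and the groups are ranges of a count, not cell types.

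The 3 single-cell libraries held 6244, 6321 and 6266 barcodes at 36 h, in endoderm and in mesoderm, above the targeted recovery of 1000 to 5000 cells. Pairs of libraries shared 50 to 56 barcodes. Among TBXT-high cells 21, and among compared cells 27, carried a barcode found in another library, and without them the same 18 genes passed the limits used below. No doublet caller was run. TBXT-high cells were deeper than compared cells, with a median of 8815 UMIs (range 5034 to 22673) against 7543. Their mitochondrial share had a median of 3.54% against 3.25%.

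The label of these cells rests on TBXT, MIXL1 and CDX2, whose promoter windows are shown as description only. They do not bear on how the 3 genes differed between the groups, where TBXT was set by the rule. Each is 300 bases from RefSeq (GRCh38.p14), 250 before a transcript start and 50 after it, written 5′ to 3′ on the strand of the gene. Capitals mark CTTTGA or its reverse complement, the core letters bound by TCF/LEF factors of the Wnt pathway. The TBXT window lies at chr6:166167802-166168101 on the minus strand, and a second RefSeq start of TBXT at chr6:166168606-166168905 had no match. The MIXL1 window lies at chr1:226223414-226223713 on the plus strand and the CDX2 window at chr13:27969266-27969565 on the minus strand.
TBXT: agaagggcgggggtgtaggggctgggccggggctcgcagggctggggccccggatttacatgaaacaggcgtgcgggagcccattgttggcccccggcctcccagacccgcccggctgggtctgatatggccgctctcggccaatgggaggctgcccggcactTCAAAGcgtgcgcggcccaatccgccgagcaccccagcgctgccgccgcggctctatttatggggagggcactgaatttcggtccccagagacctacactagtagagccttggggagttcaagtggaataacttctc
MIXL1: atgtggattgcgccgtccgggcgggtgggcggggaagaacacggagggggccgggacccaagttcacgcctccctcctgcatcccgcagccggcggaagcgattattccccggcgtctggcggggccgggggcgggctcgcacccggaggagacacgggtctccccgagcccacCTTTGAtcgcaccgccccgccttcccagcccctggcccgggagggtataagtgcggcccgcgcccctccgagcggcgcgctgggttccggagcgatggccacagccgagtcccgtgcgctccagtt
CDX2: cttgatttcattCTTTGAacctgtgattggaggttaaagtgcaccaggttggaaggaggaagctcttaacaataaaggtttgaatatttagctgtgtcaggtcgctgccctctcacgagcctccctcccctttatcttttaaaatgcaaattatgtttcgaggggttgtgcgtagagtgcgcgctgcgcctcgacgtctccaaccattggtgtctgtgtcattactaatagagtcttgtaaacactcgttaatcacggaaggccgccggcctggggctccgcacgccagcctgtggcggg
These 6 letters, searched on both strands, are in 12.9% of 35116 promoter windows of this length. In all 8 spellings were searched, which overlap within a family: the T-box letters GGTGTGA, the longer GGTGTGAA and also AGGTGTGA, the shorter AGGTGT, and for TCF/LEF the letters CTTTGA, the longer CTTTGAA and also CTTTGAT, and the longest, CTTTGATC. GGTGTGA is in 3.45% of windows. Among the 18 genes past the limits below, 11 had a window. CTTTGA was in any window of 5 of these genes (CLDN11, CXCR4, MEST, NTS and TBXT) and GGTGTGA in those of 0. TBXT, which the rule used, is counted although its other window had no match. These are counts of genes, which can have several windows, while the percentages are shares of windows. The counts and the percentages therefore cannot be compared directly. The spelling shown was picked after these values were seen, and a match describes letters only.

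TBXT (ENSG00000164458, chr6:166157656-166168700 in GRCh38, minus strand) was used by the rule. TBXT-high cells had 4 to 15 TBXT UMIs (median 5), and its summed level was 594 CPM against 75.6 CPM in compared cells. Many members sat at the limit, with 496 of 1337 at exactly 4 UMIs and 355 at 5. Just outside it, 863 cells had exactly 3, of which 724 had at most 1 TBX6 UMI. TBXT stood at 449 CPM in the members with exactly 4 UMIs and at 359 CPM in the 724 cells with exactly 3.

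**Figure D1:**
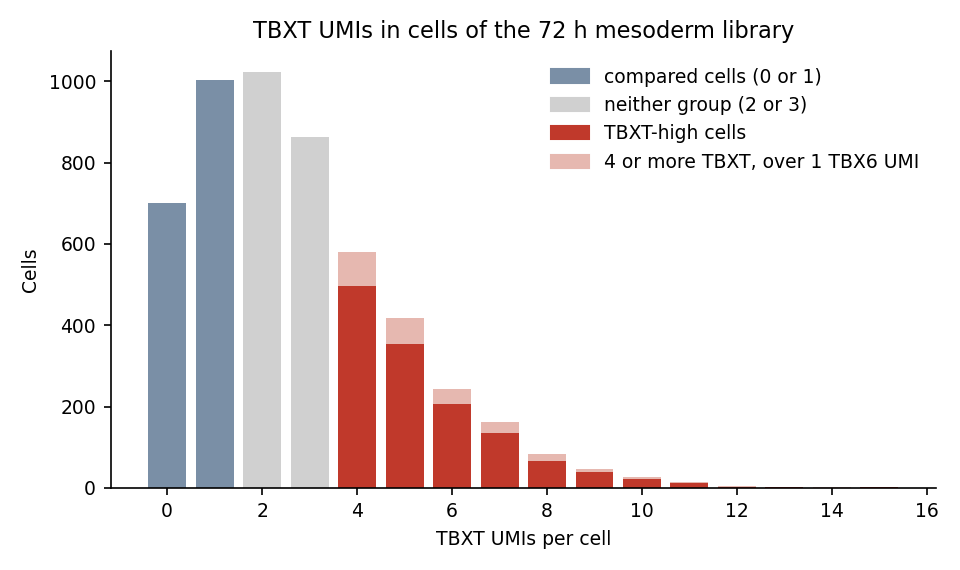
Number of cells (y axis) by TBXT UMIs per cell (x axis) among the 5175 cells within the limits, coloured by group. The counts form 1 hump with no gap at 4 UMIs, where 496 members begin next to 863 cells with 3.

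TBXT UMIs were found across the mesoderm library. With every cell thinned to 5000 UMIs, 75.4% of all cells within the limits had a TBXT UMI (86.5% unthinned, median depth 8078 UMIs). In the endoderm library, which should lack the gene, the share was 1.36% (3.06% unthinned, median depth 10763). Thinned shares were 97.1% in TBXT-high and 39.9% in compared cells, which the limits on TBXT counts set. The share of TBXT UMIs that free RNA gives in the mesoderm library was not measured, and the endoderm share does not stand for it. The same limits gave 97 cells of 2919 at 36 h and 0 of 2650 in endoderm, which allows a share of up to 0.139% there (exact binomial interval).

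To measure TBXT on UMIs that the choice did not use, each cell's UMIs were split at random into 2 parts of 50%. Cells were chosen on one part (2 or more TBXT and 0 TBX6 UMIs against 0 TBXT UMIs, 1466 against 1649 cells) and measured on the other. This alternative was added after the data were seen. The rule used no UMIs of genes other than TBXT and TBX6. For those other genes the split sets other count limits at a lower depth, and it is not a correction for the choice. On the unused UMIs TBXT stood at 388 against 248 CPM, 1.56-fold higher, where the rule applied to all UMIs gave 7.87-fold. The variance of TBXT counts over thinned cells was 1.34 times their mean, beside a median of 1.09 over the 301 genes with a mean within 1.5-fold of that of TBXT, of which 31 were above TBXT. For DKK1 it was 3.31 and for DKK4 2.27. With the library's TBXT share of UMIs in every cell, Poisson counting would give 1553 cells with 4 or more TBXT UMIs. The library had 1583 such cells, at any TBX6 count. For 0 or 1 TBXT UMI the numbers were 1356 by counting and 1705 found, and for 10 or more 11.3 and 50.

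Of the other given markers, MIXL1 was higher in TBXT-high cells and CDX2 was near equal. MIXL1 stood at 271 CPM (262 to 280) against 201 CPM (193 to 208), a log2 ratio of 0.43 (0.36 to 0.51). On unused UMIs the MIXL1 log2 ratio was 0.32. After thinning, 70.7% of TBXT-high and 57.2% of compared cells had a MIXL1 UMI, beside 44.3% of endoderm cells (85.4%, 68.7% and 63.7% unthinned). MIXL1 RNA was thus common in endoderm too.

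CDX2 stood at 79.4 CPM (74.5 to 84.6) against 77.5 CPM (72.8 to 82.3), a log2 ratio of 0.04 (-0.09 to 0.16). Its thinned shares were 33.6% and 32.0%, against 0.0755% of endoderm cells (unthinned 49.96%, 43.9% and 0.0755%). CDX2 thus marked the mesoderm library as a whole, at 78.0 CPM, and did not follow TBXT within it. On unused UMIs its log2 ratio was -0.16.

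TBX6 was limited in members by the rule and free in compared cells. It stood at 36.5 CPM in TBXT-high cells and 96.1 CPM in compared cells, of which 320 had 2 or more TBX6 UMIs. In the 1385 compared cells with at most 1 TBX6 UMI it was 42.0 CPM. The limit therefore acts on 1 group only, and for genes of paraxial and lateral mesoderm and the receptors the values against these 1385 cells are given as well.

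Few genes differed. Of 2235 genes that reached 50 CPM in either group, 4 were over 1.5-fold higher in TBXT-high cells (0.179%) and 14 over 1.5-fold lower (0.626%). The 4 were TBXT, DKK4, NEFM and FLRT3, and the 14 were TBX6, CLDN11, CXCR4, NDUFA4L2, NTS, IFT57, APLNR, LIX1, CDH11, PTGR1, MGST2, TUBA1A, RSPO3 and MEST, the last of which was named after its values were seen. TBXT and TBX6 among them were set by the rule. At 2-fold, 1 gene was higher (0.0447%), TBXT itself, and 3 were lower (0.134%). Of the 2235 genes, 78.9% were within 1.1-fold and 94.6% within 1.2-fold of equal.

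**Figure D2:**
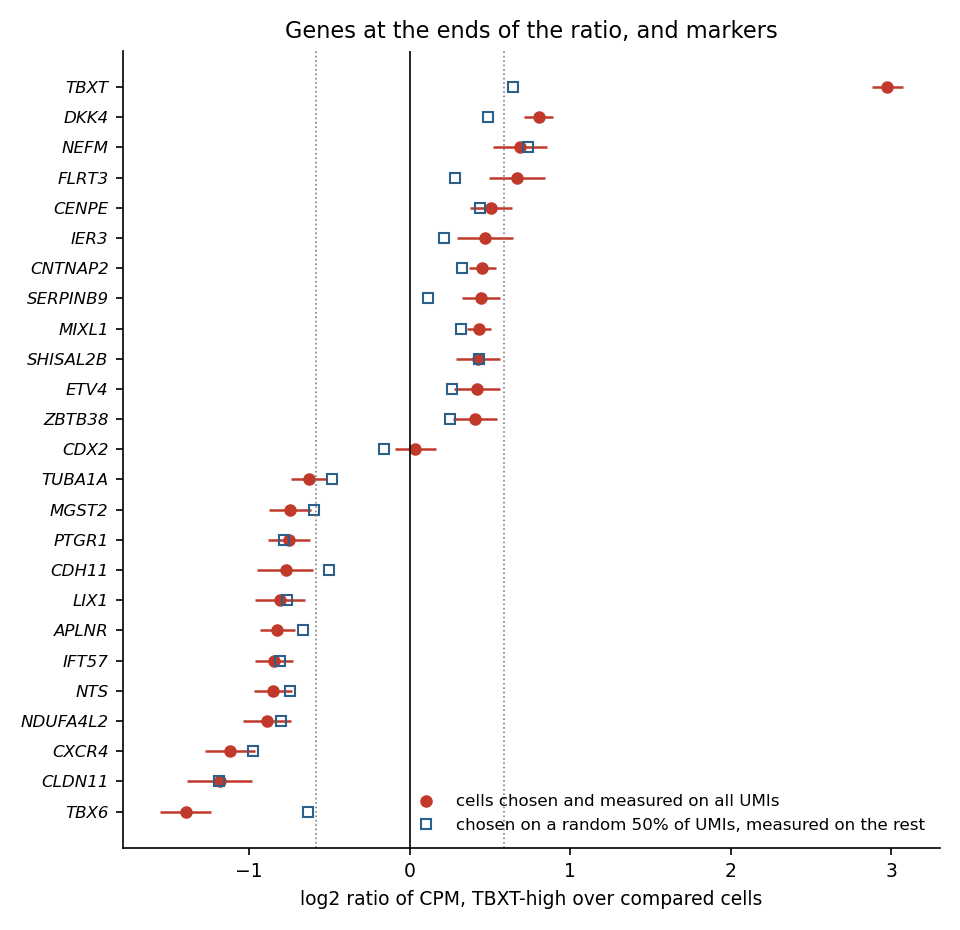
Log2 ratio of CPM (x axis), TBXT-high over compared cells, for the genes at either end and the given markers, with exact 95% intervals; squares give the ratio on UMIs not used to choose cells, and dotted lines mark 1.5-fold. TBXT and TBX6 move most between circles and squares, while CLDN11, IFT57, PTGR1 and NEFM lie close together. The squares also use other count limits at a lower depth.

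DKK4, a Dickkopf protein that blocks the Wnt co-receptors, stood at 208 CPM (200 to 216) against 119 CPM (113 to 125), 1.75-fold higher. DKK1, of the same family and far more abundant, stood at 1487 against 1213 CPM, a log2 ratio of 0.29 (0.26 to 0.32). Per cell, TBXT-high cells had a median of 12 DKK1 UMIs and compared cells 8, and the highest cells had 102 and 45. On unused UMIs the log2 ratios were 0.49 for DKK4 and 0.18 for DKK1, so DKK4 fell short of 1.5-fold with the groups of the split. On the UMIs used to choose these groups the log2 ratios were 0.45 and 0.15. With every cell thinned to 5000 UMIs before the rule DKK4 had 0.37, also short of 1.5-fold.

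Among 14 of 20 Wnt targets and feedback genes with at least 20 CPM, 1 was over 1.5-fold higher (DKK4) and 0 lower. At 20 CPM the shares of all 4628 genes were 0.259% higher and 0.735% lower. The median log2 ratio of the list was 0.05, beside 0.01 over all 4628 genes. LEF1, a transcription factor that carries the Wnt signal, was on the lower side at 33.7 against 47.8 CPM (log2 ratio -0.50, and -0.31 against the 1385 cells with at most 1 TBX6 UMI). TNFRSF19, another listed target, was at 22.2 against 17.0 CPM (0.38). Of the 14, 10 lay above 0 and 4 below, and 7 and 7 against the 1385 cells, with a median of -0.02.

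Streak genes other than TBXT were mixed. Of 18 listed, 9 had at least 20 CPM, TBXT among them. Of the 9, 2 were over 1.5-fold higher (TBXT, which the rule used, and MESP1) and 0 lower. The median, with TBXT in it, was 0.18. MESP1, a basic helix-loop-helix factor of nascent mesoderm, stood at 31.0 CPM (27.9 to 34.2) against 18.1 CPM (15.9 to 20.5). Its log2 ratio was 0.78, and 0.49 on unused UMIs, which is below 1.5-fold. FGF17, an FGF ligand of the streak, went the other way, at 108 against 139 CPM (log2 ratio -0.37). EOMES was at 4.43 against 4.74 CPM, near the bottom of detection in either group.

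FLRT3, a membrane protein that binds FGF receptors and unc-5 receptors, stood at 53.8 CPM (49.7 to 58.1) against 33.9 CPM (30.8 to 37.2). ETV4, a transcription factor induced by FGF signalling, was at 73.4 against 54.8 CPM (log2 ratio 0.42), and IER3, an immediate early gene, at 51.6 against 37.3 CPM (0.47). Of 5 FGF and ERK feedback genes with at least 20 CPM, 4 lay above 0 and 1 below, with 0 past 1.5-fold and a median of 0.27. On unused UMIs FLRT3 had a log2 ratio of 0.28, and with every cell thinned to 5000 UMIs before the rule 0.41, both below 1.5-fold.

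NEFM, which encodes the medium neurofilament subunit, stood at 59.0 CPM (54.8 to 63.5) against 36.7 CPM (33.5 to 40.1). Its log2 ratio was 0.69, and 0.74 on unused UMIs. It was 14.6 CPM in the 101 cells with 4 or more TBX6 UMIs and 15.4 CPM in compared cells with 2 or more. Against compared cells with at most 1 TBX6 UMI its log2 ratio was 0.50, below 1.5-fold. With every cell thinned to 5000 UMIs before the rule the ratio was 0.51, also below 1.5-fold.

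The genes lower in TBXT-high cells include receptors of migrating mesoderm. CXCR4, the chemokine receptor for CXCL12 that is also used to sort definitive endoderm, stood at 39.7 CPM (36.2 to 43.4) against 86.2 CPM (81.3 to 91.3), 2.17-fold lower. APLNR, the apelin receptor of early mesoderm, stood at 85.8 CPM (80.7 to 91.2) against 152 CPM (145 to 159), 1.77-fold lower. PDGFRA, the PDGF receptor of paraxial and lateral mesoderm, was at 12.6 against 22.4 CPM (log2 ratio -0.82, and -0.54 against the 1385 cells). No SOX17 UMI was found in the mesoderm library, against 127 CPM in endoderm, so the CXCR4 counts came without this endoderm gene.

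Against the 1385 compared cells with at most 1 TBX6 UMI, the log2 ratio of CXCR4 was -0.90, of CLDN11 -0.97, of APLNR -0.60 and of RSPO3 -0.41. RSPO3, a secreted Wnt amplifier of presomitic mesoderm, thus passed 1.5-fold against all compared cells (42.3 against 63.5 CPM) and not against these. With this limit 7 genes were lower in place of 14: CXCR4, NDUFA4L2, LIX1, IFT57, NTS, APLNR and MGST2. CLDN11 left the count because it stood at 45.9 CPM in the 1385 cells, under the minimum of 50 CPM. On unused UMIs CXCR4 had a log2 ratio of -0.98, CLDN11 of -1.19 and APLNR of -0.66.

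CLDN11, a tight junction claudin, stood at 23.5 CPM (20.8 to 26.4) against 53.4 CPM (49.5 to 57.4), 2.27-fold lower. CDH11, a mesenchymal cadherin, was at 34.0 against 58.1 CPM (log2 ratio -0.77), and ZEB2, a repressor of epithelial genes, at 23.4 against 36.4 CPM (-0.64). Of 15 cadherin and EMT genes with at least 20 CPM, 0 were over 1.5-fold higher and 2 lower (CDH11 and ZEB2), 9 lay above 0 and 6 below, and the median was 0.17. Against the 1385 cells CDH11 had -0.58 and ZEB2 -0.55, and 0 of the 15 passed 1.5-fold. The 6 below 0 were CDH11, ZEB2, FN1, VIM, KRT19 and the desmosome gene DSP, while KRT8 and KRT18 lay above 0, so keratins lay on both sides. The largest ratio above 0 in the list was that of ESRP1, an epithelial splicing factor, at 0.47.

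Other genes with lower values are in none of the lists. NTS, the neurotensin precursor, was at 74.7 against 135 CPM (1.80-fold lower). NDUFA4L2, a mitochondrial protein induced by low oxygen, was at 45.9 against 85.1 CPM, and IFT57, a part of the ciliary transport machinery, at 72.4 against 130 CPM. TUBA1A, an alpha tubulin, was at 84.8 against 131 CPM.

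Genes of paraxial and lateral mesoderm lay mostly below 0, and less so against compared cells under the same TBX6 limit. Of 6 presomitic and paraxial genes with at least 20 CPM, 0 were over 1.5-fold higher and 3 lower (TBX6, which the rule limits, RSPO3 and DLL3), with a median of -0.39. Against the 1385 compared cells with at most 1 TBX6 UMI, 0 of the 6 passed 1.5-fold and the median was -0.14. DLL3, a Notch ligand of the presomitic clock, was at 15.1 against 23.8 CPM (log2 ratio -0.66, and -0.47 against the 1385 cells). HES7, an oscillating repressor of the same clock, was near equal at 38.3 against 36.3 CPM (log2 ratio 0.08, -0.11 to 0.26). Against the 1385 cells its log2 ratio was 0.24. Of 5 lateral and cardiac genes, 0 were higher and 2 lower (APLNR and PDGFRA), with a median of -0.42. Against the 1385 cells 1 was lower (APLNR) and the median was -0.22. MSX1, a homeobox gene of lateral mesoderm, was at 208 against 185 CPM (log2 ratio 0.17, and 0.16 against the 1385 cells).

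HOX and CDX genes, which set position along the body axis, gave 0 of 10 past 1.5-fold in either direction, 5 above 0 and 5 below. HOXB1, HOXB3, HOXB4 and HOXB5 were on the lower side, with log2 ratios of -0.38, -0.43, -0.37 and -0.49 (-0.24, -0.24, -0.29 and -0.23 against the 1385 cells), and HOXB1 stood at 78.5 against 102 CPM. Pluripotency genes gave 0 of 11 past 1.5-fold, with a median of 0.11, and DPPA4 was at 54.8 against 44.6 CPM. Of 3 neural and neuromesodermal genes with at least 20 CPM, 0 passed 1.5-fold, 1 lay above 0 and 2 below, with a median of -0.20. The 1 above was NKX1-2, a gene of neuromesodermal progenitors, at 28.9 against 22.1 CPM. Its log2 ratio was 0.39, and 0.12 against the 1385 cells.

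Markers of some other cell types were low in both groups. The endothelial and blood, amnion and trophoblast, and germ cell lists each had 0 members at 20 CPM. Their summed levels were 22.9 against 20.2, 6.08 against 7.0 and 25.8 against 25.0 CPM. Of 15 definitive endoderm genes 3 reached 20 CPM, and the list summed to 266 against 284 CPM. Of the 3, 0 were over 1.5-fold higher and 1 lower (CXCR4), while CLDN6 and EPCAM lay above 0 (log2 ratios of 0.15 and 0.28). Of 10 notochord and node genes only KRT18, an epithelial keratin also found elsewhere, reached 20 CPM, at 531 against 423 CPM, and SHH had no UMI in the library.

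Mitotic genes lay on the higher side in these cells, and not when cells were thinned to 5000 UMIs before the rule was applied. Of 23 G2 and mitosis genes with at least 20 CPM, 21 lay above 0 and 2 below, with 0 past 1.5-fold, a median of 0.22 and a summed level of 3059 against 2716 CPM. CENPE, a mitotic kinesin, was at 93.9 against 66.1 CPM and AURKA, a mitotic kinase, at 101 against 79.4 CPM. Of 14 S-phase genes 4 lay above 0 and 10 below. Depth moved in the same direction. With compared cells drawn to the depth of members, 17 of the 23 G2 and mitosis genes lay above 0 and 6 below, with a median of 0.08. With every cell thinned to 5000 UMIs before the rule, 10 lay above 0 and 13 below (median -0.01). TOP2A, a topoisomerase of dividing cells, then had a log2 ratio of -0.14 and AURKA of 0.02. Thinning also changed which cells were chosen (579 against 2772), so depth and choice cannot be told apart there. Among cells with at least 10000 UMIs 12 lay above 0 and 11 below. Against the depth-drawn compared cells (360 cells, 36 for each decile of the members' depth), 4 genes were higher and 14 lower, and 15 of the 18 genes above were among them. When cells above the median of G2 and mitosis UMIs were left out, DKK4 had a log2 ratio of 0.77, CXCR4 of -1.26 and MIXL1 of 0.38.

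Glycolysis genes lay on the lower side. Of 17 glycolysis and hypoxia genes, 3 lay above 0 and 14 below, with 0 past 1.5-fold, a median of -0.17 and summed levels of 10848 against 12510 CPM. PKM, the last kinase of glycolysis, was at 489 against 644 CPM, PGK1, an earlier kinase, at 431 against 562 CPM and LDHA, lactate dehydrogenase, at 1048 against 1300 CPM. With every cell thinned to 5000 UMIs before the rule, 4 lay above 0 and 13 below (median -0.12).

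Levels differed step by step across TBXT counts, also among cells below the limit. In cells with at most 1 TBX6 UMI and 0, 1, 2, 3, 4 to 5, 6 to 9 and 10 or more TBXT UMIs, DKK4 stood at 106, 141, 164, 170, 207, 213 and 186 CPM. Its intervals did not overlap across the limit, between 3 (160 to 181) and 4 to 5 UMIs (196 to 217). Nor did they overlap between 0 (96.6 to 117) and 1 (132 to 150), or between 1 and 2 (155 to 174). CXCR4 over the same steps stood at 83.8, 68.1, 60.6, 48.4, 40.5, 39.1 and 30.3 CPM, lower at every step. MIXL1 went from 200 CPM at 0 UMIs to 251 at 3 and 291 at 6 to 9. CDX2 stayed between 71.4 and 83.0 CPM.

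CLDN11 had most of its difference below the limit, at 51.2, 42.4 and 25.8 CPM in cells with 0, 1 and 2 TBXT UMIs and 26.5 CPM at 4 to 5. APLNR went from 142 CPM at 0 to 94.9 at 3 and 83.7 at 6 to 9. The steps held 561, 824, 851, 724, 851, 448 and 38 cells, and their median depth went from 7233 to 11919 UMIs, so depth is ordered along the same axis. Members with exactly 4 and cells with exactly 3 TBXT UMIs were close: CXCR4 was at 44.6 and 48.4 CPM, APLNR at 92.5 and 94.9 CPM, and NEFM at 55.2 and 56.5 CPM.

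**Figure D3:**
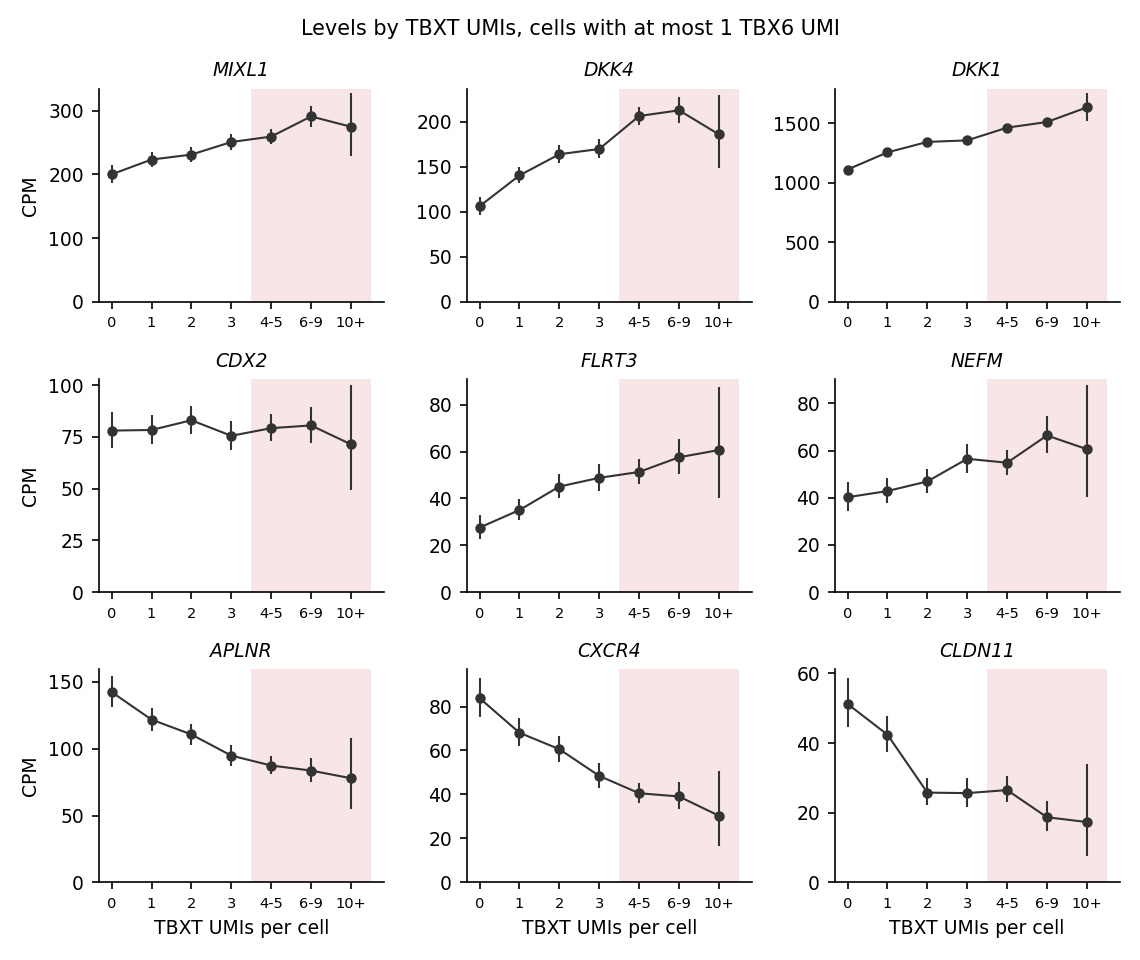
CPM (y axes) of 9 genes in cells with at most 1 TBX6 UMI, by TBXT UMIs per cell (x axes), with exact 95% Poisson intervals; shading marks the TBXT-high cells. MIXL1, DKK4, DKK1, FLRT3 and NEFM are higher and APLNR, CXCR4 and CLDN11 lower toward the right, CDX2 is flat, and the last point of each panel rests on 38 cells.

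Beside the 101 cells with 4 or more TBX6 UMIs, which still held TBXT at 263 CPM, TBXT-high cells differed more widely in the genes named here. Genes past 1.5-fold were not counted over all genes for this comparison. APLNR was 253 CPM and CXCR4 117 CPM in the TBX6-expressing cells, log2 ratios of -1.56 and -1.57 for TBXT-high cells over them. RSPO3 stood at 110 CPM and DLL1, a Notch ligand, at 66.5 CPM there, against 42.3 and 29.6 CPM in TBXT-high cells. DPPA4 and NKX1-2 were at 17.7 and 5.20 CPM there, and at 54.8 and 28.9 CPM in TBXT-high cells.

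TBXT-high cells were not a cluster of their own. Clustered without TBXT and TBX6, the 5175 cells gave 5 clusters, and TBXT-high cells made up 30.8% of cluster 1 (1840 cells), 31.6% of cluster 2 (1365), 12.0% of cluster 3 (1287) and 26.9% of cluster 4 (669). Cluster 5 had 14 cells, 3 of them TBXT-high. Cluster 2 was led by mitotic genes (DEPDC1, AURKA, UBE2C) and was the deepest of clusters 1 to 4, with a median of 9249 UMIs. Cluster 3 was led by SSTR2, LINC00434, APLNR, IFT57, CXCR4 and NDUFA4L2, and compared cells made up 50.04% of it.

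Cluster 3 held 11.6% of the TBXT-high and 37.8% of the compared cells. Its levels over all its cells were 246 CPM of TBXT, 148 of TBX6 and 247 of APLNR, with glycolysis and hypoxia genes at 14250 CPM in sum. Of its 10 leading genes, 7 are among the 14 that were lower in TBXT-high cells (APLNR, IFT57, CXCR4, NDUFA4L2, NTS, MGST2 and PTGR1), while SSTR2, LINC00434 and HOXA-AS3 are not. Those 14 are 0.626% of the 2235 genes at 50 CPM. Both sets come from the same cells, and the cluster holds unequal shares of the groups, so the overlap is no separate support.

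Within clusters, some differences kept their sign and some did not. DKK4 had log2 ratios of 0.46, 0.46, 0.99 and 0.65 in clusters 1 to 4, and CLDN11 -0.67, -0.94, -1.19 and -0.67. CXCR4 had -0.97, -0.78 and -0.60 in clusters 2 to 4 and 0.23 in cluster 1. APLNR was likewise lower in clusters 2 to 4 (-0.76, -0.39 and -0.51) and higher in cluster 1, at 55.3 against 31.7 CPM (0.80). MIXL1 had 0.06, 0.39, 0.50 and 0.44, and CDX2 0.03, -0.06, 0.03 and -0.13.

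**Figure D4:**
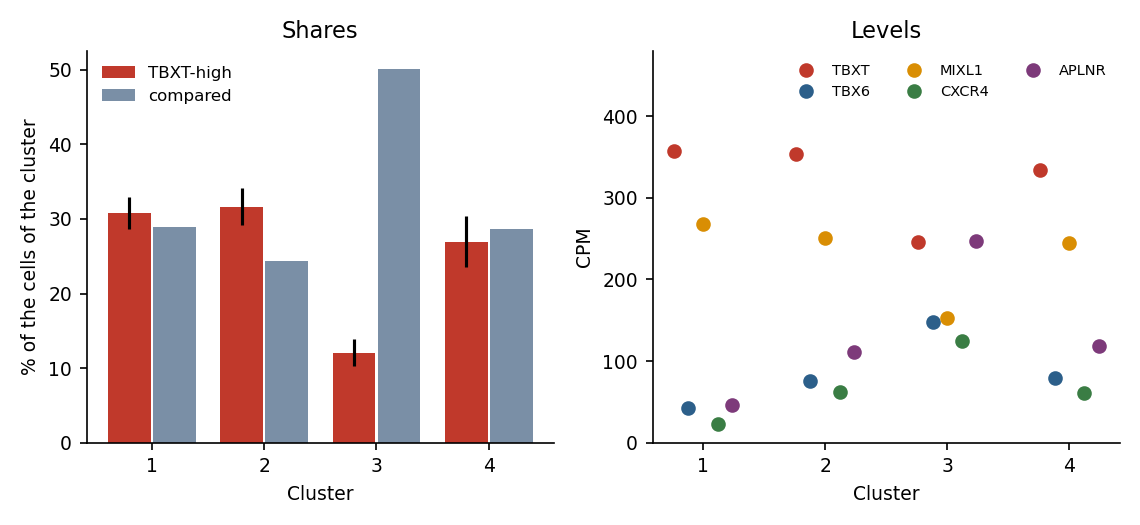
Left, percentage of each cluster's cells (y axis) that are TBXT-high, with exact 95% binomial intervals, or compared cells, for clusters 1 to 4 (x axis); right, CPM of 5 genes over all cells of each cluster. Cluster 3 has the smallest share of TBXT-high cells, 12.0%, and the highest TBX6, CXCR4 and APLNR of the 4.

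The same counts chose 97 cells at 36 h, set beside 2409 compared cells. Depths were far higher there (medians of 28048 and 25055 UMIs), so 4 UMIs stand for a lower TBXT level, 162 against 10.7 CPM. Of 2274 genes that reached 50 CPM there, 33 were over 1.5-fold higher (1.45%) and 21 lower (0.923%), 54 in all (2.37%), against 18 of 2235 in mesoderm (0.805%). Treatment, time and depth all differ between the libraries and cannot be told apart, and the ratios are given side by side with no test of their difference.

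DKK4 had ratios whose intervals overlap, 57.1 against 31.6 CPM at 36 h (log2 ratio 0.85, 0.61 to 1.08) and 0.80 (0.71 to 0.89) in mesoderm. DKK1 and MIXL1 had larger ones at 36 h: DKK1 was at 355 against 59.7 CPM (2.57) and MIXL1 at 388 against 99.0 CPM (1.97). CYP26A1, the enzyme that clears retinoic acid, was at 240 against 36.7 CPM at 36 h, and at 0.25 against 0.08 CPM in mesoderm. CER1, a secreted Nodal and Wnt antagonist, and EOMES were likewise higher in TBXT-high cells at 36 h (1.74 and 1.43) and near absent in mesoderm.

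Other genes had opposite signs. NTS was at 706 against 360 CPM at 36 h (0.97) and had -0.85 in mesoderm, and FGF17 was at 70.4 against 15.9 CPM (2.14) and had -0.37. APLNR, at a low level at 36 h, was at 18.1 against 5.23 CPM (1.79), against -0.83 in mesoderm. At 36 h the cells with few TBXT UMIs held more of the pluripotency factors SOX2 and NANOG (log2 ratios of -1.78 and -0.87 for TBXT-high over compared), which in the mesoderm library were at 3.60 and 3.67 CPM.

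**Figure D5:**
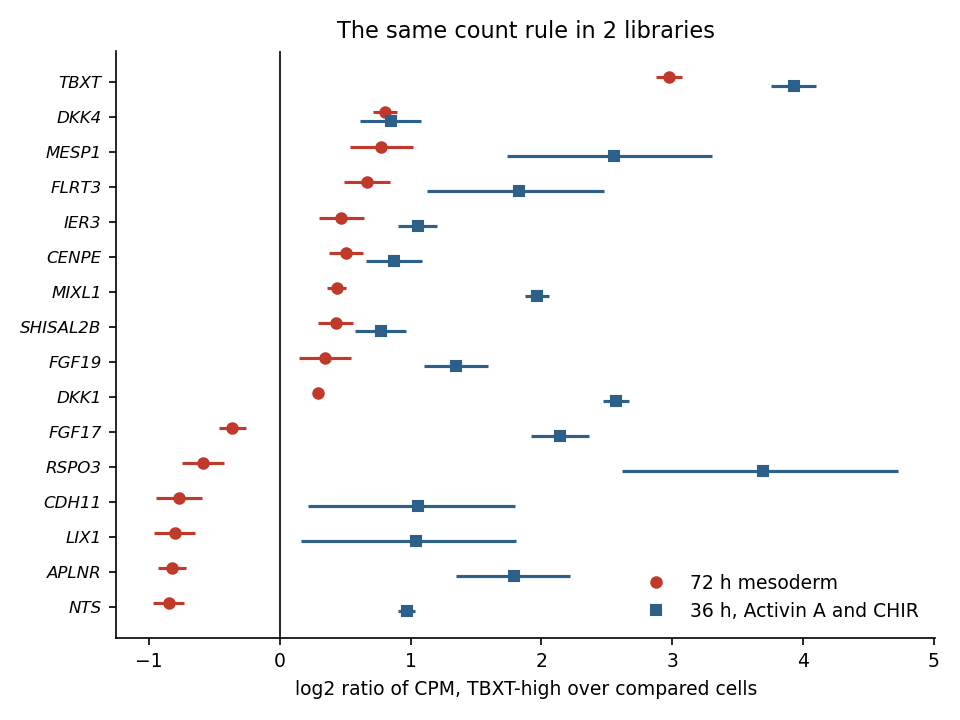
Log2 ratio of CPM (x axis), TBXT-high over compared cells, for 16 genes under the same count limits in 72 h mesoderm (circles) and at 36 h (squares), with exact 95% intervals. DKK4 overlaps, MIXL1 and DKK1 lie further right at 36 h, and FGF17, RSPO3, CDH11, LIX1, APLNR and NTS lie on opposite sides of 0. Over all 36 h cells within the limits RSPO3 and CDH11 were at only 0.89 and 3.05 CPM, so their 36 h ratios rest on few UMIs.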

How the data were processed

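The authors deposited UMI counts per gene and cell for each of 3 single-cell libraries (droplet capture after sorting, per the labels' protocols), made with Cell Ranger 3.0.2 per the file headers. GRCh38 and Seurat 4.0.2 stand in the submitters' processing notes, with no role given. Bulk tables and an aggregated matrix were not used. Counts were summed over cells and divided by the group's total UMIs (CPM) in Python 3.11.15 with numpy 2.4.6, scipy 1.17.1 and pandas 2.3.3, with exact Poisson, conditional binomial and Clopper-Pearson intervals. Ratios past 1.5-fold are counted for genes that reach 50 CPM in either group (20 CPM for members of lists). Single genes named are TBXT, MIXL1, CDX2, TBX6, the 12 largest ratios in each direction without clone identifiers, and up to 4 genes from each of 25 lists; genes taken from the 36 h and cluster results and MEST were named after their values were seen. Members and lists were chosen with earlier results of these data known. Clusters came from scanpy 1.11.5 (2000 variable genes, 30 components, 15 neighbours, Leiden resolution 0.5, seed 0). The calculation was tested on simulated data. Alternatives covered the limits on TBXT, TBX6, depth, mitochondrial share, mitosis and level.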

Additional observations from a re-analysis of the deposited data

How the results depend on the processing

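Against 4 genes higher and 14 lower in TBXT-high cells, 9 were higher with 6 or more TBXT UMIs in members and 9 with 0 TBXT UMIs in compared cells. Counts were 2 higher on unused UMIs. With every cell thinned to 5000 UMIs before the rule they were 1 higher, TBXT itself, and 4 lower. They were 12 and 34 from 20 CPM, 2 and 7 from 100 CPM, and 1 and 3 at 2-fold. Lower genes numbered 7 with compared cells also held to at most 1 TBX6 UMI and 9 with at least 10000 UMIs. The number of TBXT-high cells, 1337 by the rule, was 2061 with 3 or more TBXT UMIs, 486 with 6 or more, 414 with at least 10000 UMIs, 579 after thinning and 604 without cells above the median of G2 and mitosis UMIs. Of 1333 ratios of 89 named genes under 15 alternatives, 1100 lay within the interval of the reported ratio, 233 outside it, and 0 of the ratios past 1.5-fold changed sign. The split into unused UMIs and the leaving out of shared barcodes were chosen after seeing the data. No paired analysis was possible because each group of cells comes from 1 library and no test was made. Depth limits the low genes: at the members' median of 8815 UMIs a gene at 50 CPM gives fewer than 1 UMI a cell on average.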
